A study of Mus musculus with 12 samples.

Results

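The genes described here are Nfe2l2, which encodes the transcription factor NRF2, and 8 of its antioxidant targets, Gclc, Gclm, Slc7a11, Gsr, Txnrd1, Srxn1, Nqo1 and Hmox1. They were taken by gene name from a table of 21936 genes, which makes 9 of 21936. RNA was sequenced from whole livers of C57BL/6 mice (C57BL/6 J in the methods) with chronic liver fibrosis, in 3 groups of 3 libraries each. All mice were males, bought at 6 weeks of age, and all had received intraperitoneal carbon tetrachloride (CCl4, 1 mL/kg, diluted in olive oil) 2 times per week for 8 weeks. LFG, the group killed after those injections, stands for established fibrosis. In REG, the regression group, 200 µL PBS was injected by tail vein 2 times per week over 4 further weeks. In hADMSCs-Exo the same volume carried 250 µg of exosomes of human adipose mesenchymal stem cells, on the same schedule. REG and LFG therefore differ in age, in the time since CCl4 and in the PBS injections, which cannot be told apart, while REG and hADMSCs-Exo differ in the exosomes. Livers of mice given olive oil alone, and those of mice given the stem cells themselves, were not analysed here. The labels do not say that each library is a separate animal, so the p-values measure the spread between these libraries.

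NRF2 is kept low in unstressed cells because KEAP1 binds it and passes it to a ubiquitin ligase for degradation. When electrophiles or oxidants modify KEAP1, NRF2 escapes, pairs with a small MAF protein and binds antioxidant response elements near its target genes, so its activity is set largely at the protein level. In hepatocytes its targets make and recycle glutathione, renew thioredoxin and peroxiredoxin, reduce quinones and break down heme. CCl4 is turned by hepatocyte cytochrome P450 into radicals that start lipid peroxidation.

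Promoter sequence is shown here for 5 of the genes, to set side by side stretches with and without letters that match elements tied to oxidant or amino acid stress. Sequences are from RefSeq (GRCm38.p6), in windows from 250 bases before to 50 bases after a transcript start. Windows were found for 6 of the 9 genes, all but Gclc, Hmox1 and Gsr. Capitals mark matches, and each stretch reads 5′ to 3′ on the gene's strand. The stretches are Srxn1 at chr2:152105404-152105489 (plus strand), Slc7a11 at chr3:50443648-50443723 (minus), Txnrd1 at chr10:82859086-82859146 (plus, one of its 3 windows), Gclm at chr3:122245407-122245447 (plus) and Nqo1 at chr8:107403215-107403325 (minus).
Srxn1: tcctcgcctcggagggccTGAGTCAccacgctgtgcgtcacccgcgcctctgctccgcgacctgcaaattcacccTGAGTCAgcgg
Slc7a11: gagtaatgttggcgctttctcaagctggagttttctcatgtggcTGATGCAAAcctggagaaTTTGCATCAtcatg
Txnrd1: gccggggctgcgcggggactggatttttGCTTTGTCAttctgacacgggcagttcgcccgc
Gclm: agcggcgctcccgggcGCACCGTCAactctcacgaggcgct
Nqo1: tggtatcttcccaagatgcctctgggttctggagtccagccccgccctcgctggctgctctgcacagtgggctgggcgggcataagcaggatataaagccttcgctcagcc

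The core of the antioxidant response element was searched as TGACNNNGC on both strands. It stood in the windows of 4 of the 6 genes, and in 4071 of all 32851 windows, or 12.4%. In Txnrd1 and Gclm the match lies on the opposite strand, 92 and 134 bases before the start. In Nfe2l2 it lies on the gene's strand 240 bases before the start, and in Srxn1 on the opposite strand at base 29 after the start, outside the printed stretch. With an A required before it, the match remained in Txnrd1 alone and in 2.13% of all windows. The AP-1 letters TGAGTCA occurred at 102 and 45 bases before the Srxn1 start and in 5.2% of all windows. At the copy nearer to the start they were part of TGAGTCAGC, which 0.414% of windows held. That stretch differs from TGACNNNGC only by a G in place of the C after TGA, a form not counted as a match of the element here. Slc7a11 carried TGATGCAAA, the letters of an amino acid response element bound by ATF4, once on each strand, 66 and 48 bases before its start, against 0.271% of windows. The Nqo1 window held none of the 5 motifs. These are matches of letters in short windows and say nothing about binding in these livers.

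The libraries held 13837445 to 19840917 counts, with 13924 to 15248 genes detected. Levels are given as log2 CPM, the log2 of counts scaled to a common library size with TMM (trimmed mean of M values) factors. The third LFG library stood apart, with the fewest counts, the fewest genes detected and the lowest TMM factor, 0.815 against up to 1.38. In it, 8 stellate cell and myofibroblast genes (collagens, Acta2 and others) summed to 58.1 CPM, against 936 and 1418 in the other LFG libraries, 205 to 361 in REG and 81.0 to 219 in hADMSCs-Exo. A library labelled as established fibrosis was thus the lowest of the 9 in these genes. In the same library, 11 Kupffer cell and macrophage genes summed to 129 CPM, against 1049 and 1527 in the other LFG libraries. The 8 hepatocyte genes summed to 81806 to 152338 CPM in LFG, 163780 to 170194 in REG and 121903 to 139281 in hADMSCs-Exo, with none at 0. Alb alone made up 66.3% to 82.0% of each sum, and REG was above all other libraries in Alb and in the sum. Without Alb the sums were 17661 to 51408 CPM in LFG, 30598 to 32624 in REG and 31520 to 35661 in hADMSCs-Exo, which overlap. In hADMSCs-Exo against REG, 5 of the 8 hepatocyte genes had a log2 fold change above 0 (median 0.13), with Cyp2e1 at 0.67 and Hnf4a at 0.43 higher at an unadjusted p under 0.05 (5.34% of all genes) and without overlap. Alb at -0.44 and Apoa1 at -0.19 lay lower without overlap, at an unadjusted p of 0.0626 and 0.263 in edgeR. In hADMSCs-Exo against REG, 6 of the 8 stellate cell genes were lower at an unadjusted p under 0.05, with a median log2 fold change of -1.14 (4.69% of all genes were lower), as were 5 of the 8 in hADMSCs-Exo against LFG (median -2.46, 3.68% of all genes) and 0 of the 8 in REG against LFG (median -0.58). In hADMSCs-Exo against LFG, all 3 tested neutrophil genes were higher at an unadjusted p under 0.05 and without overlap (median 1.82), and 4 of 6 lymphocyte genes were higher without overlap (median 1.05), where 2.30% and 6.73% of all genes were. The part of these shifts in cell type markers in the values below was not tested. The marker counts and medians against LFG include LFG 3 and are not given without it. For the stellate cell genes, the REG sums lay below those of LFG 1 and LFG 2 and above that of LFG 3. Below, fold changes of the genes described here against LFG are also given without LFG 3. In whole liver, fewer cells of a type and less RNA per cell cannot be told apart.

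Per length, Gclc had the highest mean of the 9 genes in each group and Slc7a11 the lowest. In LFG, mean FPKM (fragments scaled by gene length and library total) was 80.9 ± 26.4 for Gclc, 53.9 ± 39.8 for Srxn1 and 36.3 ± 29.5 for Hmox1 (SD, n = 3). Without LFG 3, Gclc was at 92.7 and 99.3 FPKM in the other LFG libraries, and the means of Srxn1 and Hmox1 were 75.9 and 52.3 FPKM. Slc7a11 was at 0.0921 ± 0.0814 FPKM. The order differed in REG, where Gclc at 30.0 ± 0.232 FPKM was closest to Gclm at 27.9 ± 2.19, with Gsr, Nfe2l2 and Srxn1 following at 20.6 ± 2.80, 18.2 ± 1.73 and 17.9 ± 0.560 FPKM. Among these, Gclc and Gclm differed by less than 1 SD of Gclm, as did Nfe2l2 and Srxn1. Hmox1, Txnrd1 and Nqo1 came next at 15.4 ± 8.68, 15.1 ± 2.03 and 8.41 ± 2.59 FPKM. In hADMSCs-Exo, mean FPKM ran from 51.8 ± 18.1 for Gclc to 0.0217 ± 0.0266 for Slc7a11.

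**Figure D1:**
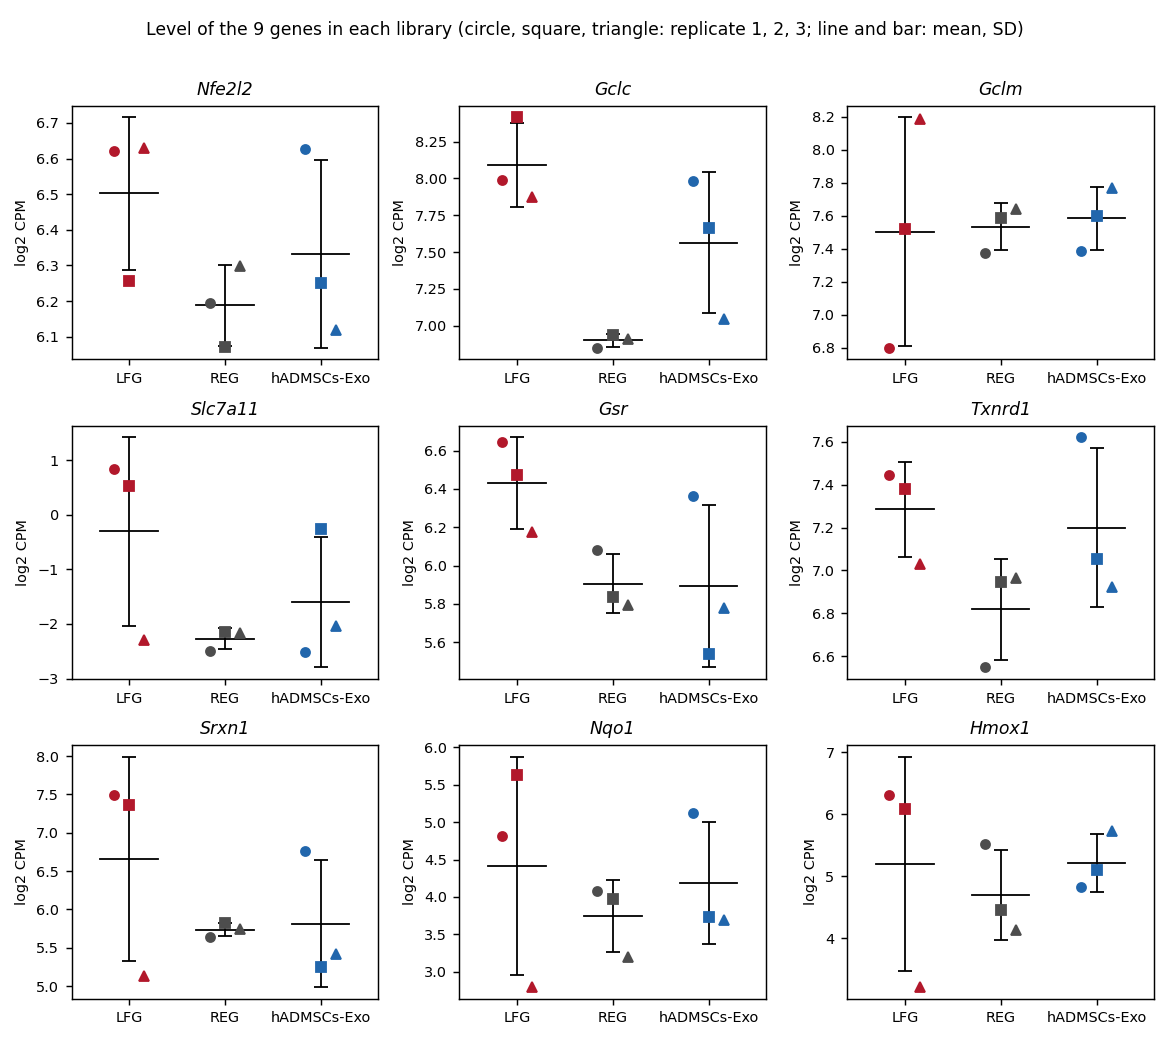
Level in log2 CPM (y axis, a separate scale for each gene) of the 9 genes in the LFG, REG and hADMSCs-Exo libraries. Symbols are libraries 1 to 3, the line is the mean and the bar the SD. LFG 3 is the lowest LFG library for Gclc, Slc7a11, Gsr, Txnrd1, Srxn1, Nqo1 and Hmox1 and the highest for Gclm, and hADMSCs-Exo 1 is the highest of its group for Nfe2l2, Gclc, Gsr, Txnrd1, Srxn1 and Nqo1.

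The first comparison, REG against LFG, asks how these genes stood after 4 weeks without CCl4. Gclc, the catalytic subunit of the rate-limiting enzyme of glutathione synthesis, was 2.31 times lower in REG, and all its REG libraries lay below all its LFG libraries. Srxn1, Nqo1 and Hmox1 were lower in the fit by 1.82 to 2.37 times, with LFG 3 below the range of REG. Gsr and Txnrd1 were lower by smaller amounts without overlap, and Gclm did not separate the groups. With all libraries, the quasi-likelihood test of edgeR, adjusted by Benjamini-Hochberg, called none of the 8 tested genes at an adjusted p under 0.05 and a log2 fold change of at least 1, and none of the 12517 genes tested (0%). With LFG 3 left out it called 4 of these 8 lower (Gclc, Srxn1, Nqo1 and Hmox1), where 6.94% of all genes were called lower (10.7% in either direction). At an unadjusted p under 0.05, 6 of the 8 were then lower (19.1% of all genes). With any other library left out, edgeR called none of the 8.

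By the other tools, with all libraries, limma voom with quality weights called 4 of the 8 lower (Gclc, Srxn1, Nqo1 and Hmox1) against 6.74% of all genes, and DESeq2 called Gclc against 1.12% of the 12820 genes it gave an adjusted p. At an unadjusted p under 0.05 in edgeR, 2 of the 8 were lower (6.70% of all genes), and 3 of the 8 were lower with no overlap between groups (9.63%). All 8 had a log2 fold change below 0, as had 55.9% of all genes, and their median was -0.70 against -0.07 over all genes. Slc7a11 did not pass the filter on low counts with all libraries. Without LFG 3 it passed only through LFG, where it is high, so it is left out of these counts.

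The second comparison, hADMSCs-Exo against REG, asks how these genes stood in the recovering liver with exosomes and without. Gclc was 1.64 times higher with exosomes, and its hADMSCs-Exo libraries lay above its REG libraries without overlap. Its adjusted p was 0.407 in edgeR's quasi-likelihood test. None of the 8 tested genes was called (0.00811% of 12337 genes were). At an unadjusted p under 0.05, 1 of the 8 was higher (5.34%), and 1 of the 8 was higher without overlap (8.14%). DESeq2 and limma voom called none of the 8 either. Fitted fold changes were above 0 for all 8 tested genes, as for 51.1% of all genes, with a median of 0.32 against 0.01. Without hADMSCs-Exo 1, 4 of the 8 (Nfe2l2, Nqo1, Srxn1 and Gsr) were below 0. Gsr was also below 0 without REG 2 and without REG 3 (-0.03 and -0.04), and Gclm without REG 1 and without hADMSCs-Exo 3 (-0.01 and -0.04).

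The third comparison, hADMSCs-Exo against LFG, shares the LFG libraries with the first and the hADMSCs-Exo libraries with the second, so the 3 sets of values are not independent. All 9 genes passed the filter here, Slc7a11 with more than 2 counts only in LFG 1, LFG 2 and hADMSCs-Exo 2. None of the other 8 was called by edgeR, DESeq2 or limma voom, and none of 12489 genes was called in edgeR (0%). None reached an unadjusted p under 0.05 (5.98% of all genes did), and none separated the groups without overlap (12.3%). Fitted fold changes were below 0 for all of these 8, as for 56.9% of all genes, with a median of -0.48 against -0.06. Without LFG 3, 3 of these 8 (Srxn1, Hmox1 and Gsr) were lower at an unadjusted p under 0.05 (15.7% of all genes), none of them called (4.50% were called lower).

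**Figure D2:**
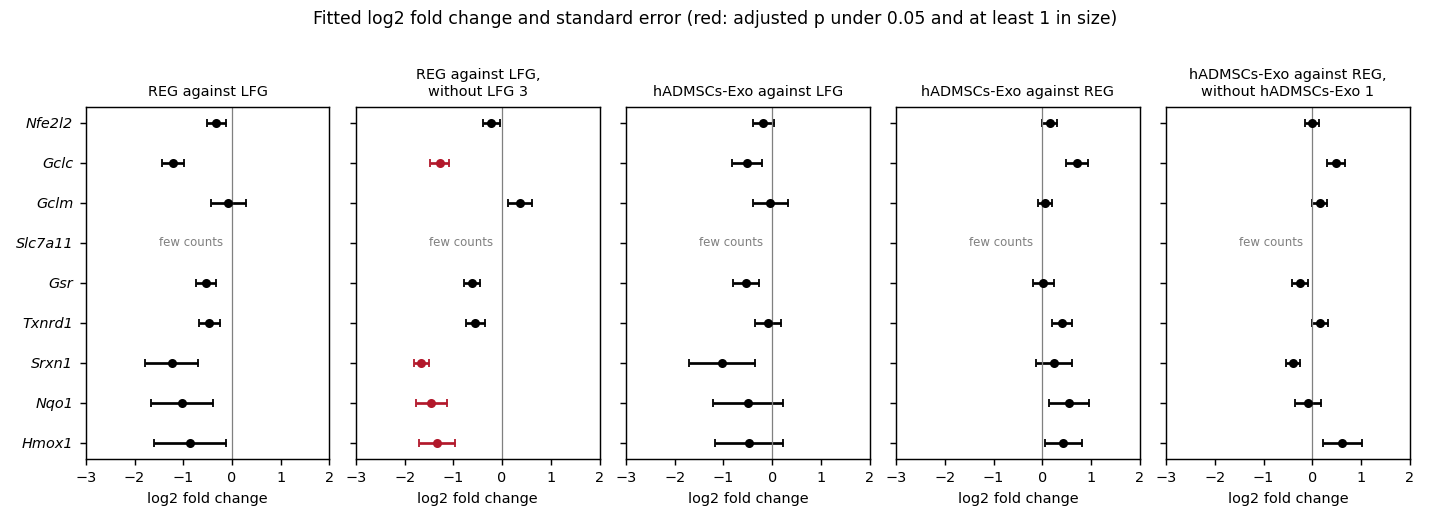
Fitted log2 fold change (x axis) with its standard error for each gene (y axis) in the 3 comparisons, and in 2 of them with the library that stood out left out. Red marks an adjusted p under 0.05 with a log2 fold change of at least 1. Slc7a11 is not drawn because of its few counts. Red points appear only in REG against LFG without LFG 3, for Gclc, Srxn1, Nqo1 and Hmox1.

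Nfe2l2 (ENSMUSG00000015839, chr2:75675513-75704641, minus strand, GRCm38) was at a log2 CPM of 6.62, 6.26 and 6.63 in the LFG libraries. It was at a log2 CPM of 6.19, 6.07 and 6.30 in REG and 6.63, 6.25 and 6.12 in hADMSCs-Exo. The groups overlapped in every comparison of this transcript. Its log2 fold change was -0.32 (95% interval -0.78 to 0.13) in REG against LFG, and edgeR's adjusted p was 0.554. Without LFG 3 it was -0.23 (SE 0.17). Set against REG, hADMSCs-Exo gave a log2 fold change of 0.15 (-0.21 to 0.51), with an adjusted p of 0.757 in edgeR. Both intervals hold 0, as does that of hADMSCs-Exo against LFG, -0.18 (-0.70 to 0.33), which was -0.10 (SE 0.21) without LFG 3. Keap1, which holds NRF2 down, was at a mean log2 CPM of 5.17 ± 0.28 in LFG, 5.40 ± 0.14 in REG and 5.34 ± 0.18 in hADMSCs-Exo (SD, n = 3).

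Gclc (ENSMUSG00000032350, chr9:77754535-77794485, plus strand) encodes the subunit of glutamate-cysteine ligase that joins glutamate to cysteine. Its log2 CPM was 7.99, 8.42 and 7.87 in LFG, and 6.85, 6.94 and 6.91 in REG. The hADMSCs-Exo libraries were at 7.98, 7.66 and 7.05. The REG libraries were tightly grouped and lowest, hADMSCs-Exo 1 reached the LFG libraries, and hADMSCs-Exo 3 came close to REG. In REG against LFG its log2 fold change was -1.21 (SE 0.22), with an unadjusted p of 0.000904 and an adjusted p of 0.262 in edgeR. DESeq2 gave an adjusted p of 0.000121 and limma voom one of 0.00930. Without LFG 3 the log2 fold change was -1.28 (SE 0.19), and edgeR's adjusted p was 0.0152. Over all libraries left out in turn it ran from -1.28 to -1.03, and the exact permutation test on its log2 CPM gave 0.1, the smallest p that 3 against 3 can give. For hADMSCs-Exo against REG its log2 fold change was 0.71 (SE 0.22), with an unadjusted p of 0.0114, and leaving out a library gave 0.48 to 0.93. Against LFG, the log2 fold change of hADMSCs-Exo was -0.52 (95% interval -1.25 to 0.21), and -0.60 (SE 0.29) without LFG 3, with a range of -0.72 to -0.29 over the libraries left out.

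Gclm (ENSMUSG00000028124, chr3:122245557-122270732, plus strand) encodes the modifier subunit, which makes the same enzyme more efficient. It was at a log2 CPM of 6.80, 7.52 and 8.19 in LFG and 7.37, 7.59 and 7.64 in REG. In hADMSCs-Exo it was 7.38, 7.60 and 7.77. LFG spanned the other groups, with LFG 3 as its highest library. In REG against LFG the log2 fold change was -0.08 (95% interval -0.93 to 0.77), and without LFG 3 it was 0.37 (SE 0.24) with an adjusted p of 0.308 in edgeR. Its direction also turned in limma voom, to 0.14, and without REG 1, to 0.03, and it was -0.36 without LFG 1. The log2 fold change in hADMSCs-Exo against REG was 0.05 (-0.28 to 0.39). For hADMSCs-Exo against LFG the fitted log2 fold change was -0.04 (-0.88 to 0.81), with -0.32 without LFG 1 and 0.39 (SE 0.26) without LFG 3, while the mean log2 CPM was slightly higher in hADMSCs-Exo, 7.58 against 7.50. An antisense transcript and a pseudogene overlap Gclm in the annotation, and whether the counting used strand was not given in the sources used here.

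The levels of the subunits were also compared as a ratio within each library. The ratio of Gclc to Gclm in FPKM was 3.80, 3.11 and 1.34 in the LFG libraries. It was 1.16, 1.06 and 1.01 in REG, and 2.53, 1.74 and 1.01 in hADMSCs-Exo. All REG ratios lay below all LFG ratios (means 1.08 ± 0.0790 and 2.75 ± 1.27, SD, n = 3), and the exact two-sided permutation test gave p = 0.1, the smallest possible. LFG 3 was close to REG 1, and without it the LFG ratios were 3.80 and 3.11. The hADMSCs-Exo ratios (1.76 ± 0.759) overlapped with both groups, with an exact permutation p of 0.3 in each case, from 3 ratios of the same family.

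**Figure D3:**
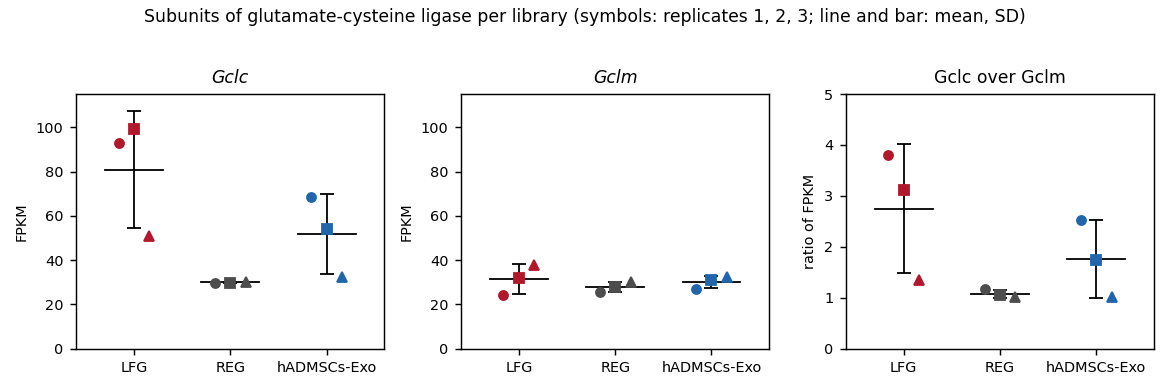
FPKM of Gclc and Gclm (left and middle, the same y axis from 0) and their ratio (right) in each library of the 3 groups, with the mean as a line and the SD as a bar. Gclc FPKM lies near 30.0 in REG and reaches 99.3 in LFG, while Gclm stays between 24.4 and 37.8 FPKM in all libraries.

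Slc7a11 (ENSMUSG00000027737, chr3:49892526-50443614, minus strand) encodes the transport subunit of the cystine and glutamate exchanger, which brings in cystine for glutathione. It was near the limit of detection, with 40, 24 and 1 counts in the LFG libraries. There were 1, 2 and 2 counts in REG, and 1, 12 and 2 in hADMSCs-Exo. Only LFG 1, LFG 2 and hADMSCs-Exo 2 had more than 2 counts. Over pooled libraries its CPM was 13.0 times as high in LFG as in REG (95% exact interval 5.30 to 41.4, for counting error only), from 65 and 5 counts. Without LFG 3 the ratio was 16.3 (6.62 to 51.8). In hADMSCs-Exo against REG the pooled ratio was 3.24 (1.12 to 11.4), and without hADMSCs-Exo 2 it was 0.977 (0.152 to 5.02). The difference between hADMSCs-Exo and REG thus rested on 12 counts of a single library. The pooled ratio of LFG over hADMSCs-Exo was 4.02 (2.27 to 7.58), and 5.02 (2.83 to 9.49) without LFG 3. No test is given for this gene, since it passed the filter only or mainly through the LFG libraries where it is high. The intervals leave out the spread between libraries, so they are not tests of the groups either.

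Gsr (ENSMUSG00000031584, chr8:33652523-33698163, plus strand) encodes glutathione reductase, which returns oxidized glutathione to its reduced form at the cost of NADPH. Its log2 CPM was 6.65, 6.47 and 6.17 in LFG and 6.08, 5.84 and 5.80 in REG. The hADMSCs-Exo libraries were at 6.36, 5.54 and 5.78. LFG lay above REG without overlap, though LFG 3 and REG 1 were close. In REG against LFG its log2 fold change was -0.53 (SE 0.20), with an unadjusted p of 0.0315 and an adjusted p of 0.407 in edgeR. Without LFG 3 it was -0.62 (SE 0.16), and edgeR's adjusted p of 0.0428 passed while the fold change stayed under the limit, and without LFG 1 it was -0.42. Set against REG, hADMSCs-Exo gave a log2 fold change of 0.02 (95% interval -0.47 to 0.51), and -0.25 without hADMSCs-Exo 1. Against LFG it was -0.53 (-1.17 to 0.10) in hADMSCs-Exo, and -0.63 (SE 0.25) without LFG 3, with a range of -0.78 to -0.36 over the libraries left out.

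Txnrd1 (ENSMUSG00000020250, chr10:82833951-82897712, plus strand) encodes cytosolic thioredoxin reductase. It was at a log2 CPM of 7.44, 7.38 and 7.03 in LFG and 6.55, 6.94 and 6.96 in REG. In hADMSCs-Exo it was 7.62, 7.05 and 6.92. Here too LFG lay above REG without overlap, by a narrow margin between LFG 3 and REG 3. The log2 fold change in REG against LFG was -0.47 (SE 0.21), with an adjusted p of 0.464 in edgeR, and -0.55 (SE 0.19) without LFG 3, with an adjusted p of 0.0801. It was smallest without REG 1, at -0.31. For hADMSCs-Exo against REG it was 0.40 (95% interval -0.07 to 0.87), and 0.16 without hADMSCs-Exo 1. Against LFG it was -0.08 (-0.70 to 0.53) in hADMSCs-Exo, and -0.18 (SE 0.24) without LFG 3, and it turned to 0.01 without hADMSCs-Exo 2 and 0.06 without hADMSCs-Exo 3. The protein-coding gene Eid3 lies within Txnrd1 on the same strand. How reads shared by both annotations were counted was not given in the sources used here.

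Srxn1 (ENSMUSG00000032802, chr2:152105516-152111376, plus strand) encodes sulfiredoxin, which rescues over-oxidized peroxiredoxins. Its log2 CPM was 7.49, 7.36 and 5.12 in LFG and 5.64, 5.82 and 5.75 in REG. The hADMSCs-Exo libraries were at 6.77, 5.25 and 5.42. LFG 1 and LFG 2 were the highest of all libraries and LFG 3 the lowest. The log2 fold change in REG against LFG was -1.24 (SE 0.55), with an adjusted p of 0.458 in edgeR. Without LFG 3 it was -1.66 (SE 0.16), or 3.16 times lower, and its adjusted p of 0.0104 in edgeR was the lowest of these genes. Without LFG 1 the log2 fold change was -0.90, and without LFG 2 -1.01. The log2 fold change in hADMSCs-Exo against REG was 0.24 (95% interval -0.59 to 1.07), and it turned to -0.40 (SE 0.14) without hADMSCs-Exo 1, with an adjusted p of 0.427 in edgeR. Relative to LFG, its log2 fold change in hADMSCs-Exo was -1.03 (SE 0.67) with all libraries and -1.45 (SE 0.43) without LFG 3, with edgeR adjusted p of 0.854 and 0.0822. It ran from -1.64 without hADMSCs-Exo 1 to -0.68 without LFG 1.

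Nqo1 (ENSMUSG00000003849, chr8:107388225-107403206, minus strand) encodes a quinone reductase and is a widely used readout of NRF2 activity. It was at a log2 CPM of 4.81, 5.63 and 2.80 in LFG and 4.08, 3.97 and 3.20 in REG. In hADMSCs-Exo it was 5.12, 3.74 and 3.69. As for Srxn1, LFG 3 was lowest of all. Here hADMSCs-Exo 1 lay between LFG 1 and LFG 2, whereas for Srxn1 it lay below both. The log2 fold change in REG against LFG was -1.02 (SE 0.64), with an adjusted p of 0.570 in edgeR, and -1.45 (SE 0.32) without LFG 3, with an adjusted p of 0.0291. Without LFG 2, its highest library, it was -0.34 (SE 0.60), with an adjusted p of 0.906 in edgeR, so the size rested on LFG 2 as well as LFG 3. Set against REG, hADMSCs-Exo gave a log2 fold change of 0.55 (95% interval -0.40 to 1.50), and -0.09 without hADMSCs-Exo 1. Against LFG, the log2 fold change of hADMSCs-Exo was -0.50 (-2.19 to 1.19), and -0.93 (SE 0.46) without LFG 3. It turned to 0.19 (SE 0.72) without LFG 2, and was -1.11 without hADMSCs-Exo 1.

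Hmox1 (ENSMUSG00000005413, chr8:75093621-75100589, plus strand) encodes heme oxygenase, which opens the heme ring and frees iron, and is also strongly expressed by macrophages that clear red cells. Its log2 CPM was 6.31, 6.08 and 3.21 in LFG and 5.51, 4.46 and 4.13 in REG. The hADMSCs-Exo libraries were at 4.82, 5.10 and 5.73. LFG 3 was its lowest library and, unlike for Srxn1 and Nqo1, hADMSCs-Exo 1 was the lowest of its group. The log2 fold change in REG against LFG was -0.87 (SE 0.74), with an adjusted p of 0.671 in edgeR, and -1.34 (SE 0.37) without LFG 3, with an adjusted p of 0.0475, just under the limit. Without LFG 1 it was -0.43 (SE 0.81) and without LFG 2 -0.64 (SE 0.87), while without REG 1 it was -1.37 (SE 0.86), and edgeR called none of these. For hADMSCs-Exo against REG it was 0.43 (95% interval -0.45 to 1.32), and 0.98 (SE 0.28) without REG 1, with an adjusted p of 0.352 in edgeR, and 0.13 (SE 0.41) without hADMSCs-Exo 3. For hADMSCs-Exo against LFG the fitted log2 fold change was -0.47 (SE 0.70), although mean log2 CPM was nearly equal (5.22 and 5.20). Without LFG 3 it was -0.93 (SE 0.27), with an adjusted p of 0.0830 in edgeR, and without LFG 1 it was -0.02 (SE 0.76).

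The summed level of several marker lists followed Hmox1 in part across the libraries. The 11 Kupffer cell and macrophage genes summed to 1527, 1049 and 129 CPM in LFG and to 1234, 570 and 373 CPM in REG. They summed to 823, 702 and 903 CPM in hADMSCs-Exo. In LFG and REG the order of the libraries was the same as for Hmox1, and in hADMSCs-Exo the third library was highest for both. The order of the 4 neutrophil genes was that of Hmox1 in all 3 groups, at 11.4, 8.15 and 7.01 CPM in LFG, 39.2, 12.3 and 6.39 in REG and 22.0, 37.2 and 39.5 in hADMSCs-Exo. Between groups it was not, since all neutrophil sums in LFG lay below those in hADMSCs-Exo, while LFG 1 and LFG 2 were the highest libraries for Hmox1. With 3 libraries per group and 8 lists compared, some orders can match without a link. The 5 red blood cell genes had its order in REG (883, 468 and 187 CPM) and in hADMSCs-Exo (109, 272 and 522 CPM), but not in LFG. Cholangiocyte genes had it in LFG and hADMSCs-Exo, and each of the other 4 lists in 1 group. In LFG 3, Gpnmb was at 0 and Adgre1, the gene of the macrophage antigen F4/80, at 1.69 CPM, against 75.7 and 54.6 CPM in the other LFG libraries. With LFG 3 included, none of the 11 macrophage genes reached an unadjusted p under 0.05 in REG against LFG, where 4.62% of all genes were higher and 6.70% lower. None did in hADMSCs-Exo against REG (5.34% of all genes higher and 4.69% lower). In hADMSCs-Exo against LFG Timd4 alone did (5.98% of all genes), higher at a log2 fold change of 1.19 without overlap. The macrophage counts against LFG are not given without LFG 3. The part of these lists in the Hmox1 values was not tested.

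**Figure D4:**
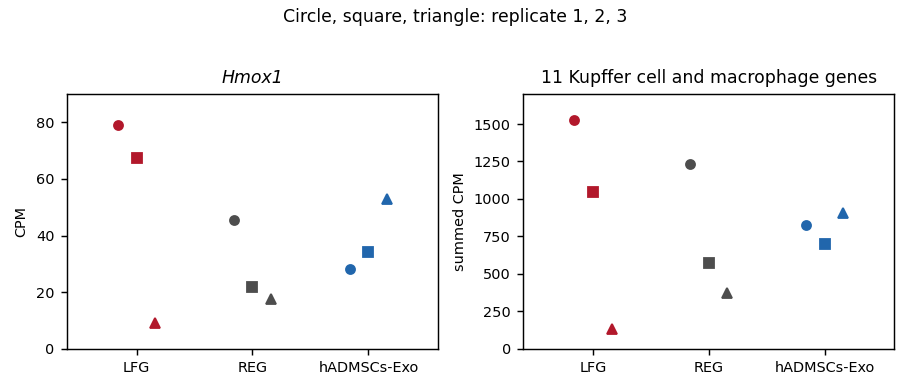
CPM of Hmox1 (left) and the summed CPM of 11 Kupffer cell and macrophage genes (right), both y axes from 0, in each library of the 3 groups. LFG 3 is lowest in both panels, at 9.14 and 129 CPM, and LFG 1 highest, at 79.1 and 1527 CPM.

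By Pearson's r of log2 CPM over the 9 libraries and 12760 genes, the genes most like Nqo1 were Lacc1 (0.959), Cbr3 (0.953), Slc48a1 (0.944), Cdca4 (0.933) and Asap2 (0.924). Cbr3 encodes a carbonyl reductase and Slc48a1 a heme transporter. Among the genes most like Nfe2l2 were Tmem253 (0.981), Ctcf (0.949), Phrf1 (0.937) and Ppp2r1b (0.907). These values describe the 9 libraries, which share depth and cell make-up.

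Cbr3 was named for its correlation with Nqo1 over these same libraries, so a shared library pattern follows from that choice. Its range was wider than that of Nqo1. It had 473, 810 and 2 counts in LFG, against 42, 25 and 27 in REG. There were 183, 26 and 38 counts in hADMSCs-Exo. As with Nqo1 and Srxn1, LFG 1, LFG 2 and hADMSCs-Exo 1 were its 3 highest libraries and LFG 3 was its lowest.

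The wider pathway was described with 65 further genes in 7 lists, of which 62 passed the filter in each comparison (all but Ggt1, Gpx2 and Nnt). None was called in any comparison with all libraries. In REG against LFG, 1 was higher and 5 were lower at an unadjusted p under 0.05 (4.62% and 6.70% of all genes), with a median log2 fold change of 0.01 against -0.07 over all genes. Without LFG 3, 15 of 63 tested were higher and 12 lower (18.2% and 19.1%), with a median of 0.21 against -0.005. In hADMSCs-Exo against REG, 4 were higher and 7 lower (5.34% and 4.69%), with a median of -0.03. Against LFG, 1 was higher and 3 lower (2.30% and 3.68%), with a median of -0.07. Leaving out LFG 3 changed these to 11 of 63 tested higher and 9 lower (12.8% and 15.7%). The median then turned to 0.11, where that over all genes was 0.004. With all libraries, DESeq2 called 1 of the pathway genes in REG against LFG (1.81% of the genes with an adjusted p). There limma voom called 6 (10.3% of all genes), and both counts are for either direction.

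Among the 12 genes of NRF2 control, Mafg and Maff, which encode small MAF partners of NRF2, had unlike values. Mafg was at a mean log2 CPM of 6.25 ± 0.48 in LFG, 6.33 ± 0.02 in REG and 6.76 ± 0.16 in hADMSCs-Exo (SD, n = 3). Its log2 fold change of 0.44 (SE 0.12) in hADMSCs-Exo against REG came without overlap, at an unadjusted p of 0.00736 and an adjusted p of 0.407 in edgeR. Maff was at 3.22, 4.87 and 4.75 log2 CPM in LFG and 2.99, 2.03 and 2.65 in REG, a log2 fold change of -1.85 without overlap, and -1.64 without LFG 3. Gsk3b, whose kinase marks NRF2 for degradation, was at 5.19, 5.26 and 5.19 in LFG and 4.32, 4.51 and 4.65 in REG, with a log2 fold change of -0.72 (SE 0.16), an unadjusted p of 0.00323 and an adjusted p of 0.291 in edgeR. Without LFG 3 it was -0.69, with an adjusted p of 0.0327. Dpp3 competes with NRF2 for KEAP1. With all libraries it was the single gene of the 62 tested higher at an unadjusted p under 0.05 in REG against LFG. Its log2 fold change was 0.48, and 0.43 without LFG 3, where 15 of the 63 tested genes were higher at that limit.

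In the glutathione list, Oplah, which opens 5-oxoproline to glutamate, had a log2 fold change of 0.46 and Ggct, which releases 5-oxoproline, one of -0.72 in hADMSCs-Exo against LFG, both without overlap. Without LFG 3 these were 0.51 and -0.60. In the thioredoxin and peroxiredoxin list, Txnip, which inhibits thioredoxin, was at 6.82, 7.50 and 6.29 log2 CPM in LFG and 5.90, 5.76 and 4.88 in hADMSCs-Exo. That is a log2 fold change of -1.40 (SE 0.40), with an unadjusted p of 0.0102 and an adjusted p of 0.805 in edgeR. Sesn2, a stress-induced sestrin, lay lower in REG than in either other group without overlap. Its log2 fold change was -1.01 in REG against LFG and 0.64 in hADMSCs-Exo against REG, with edgeR adjusted p of 0.339 and 0.448. Txnrd2, the mitochondrial thioredoxin reductase, was at -0.36 in hADMSCs-Exo against REG, where its cytosolic counterpart Txnrd1 was at 0.40.

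In the NADPH list, 3 of the 6 tested genes were lower in hADMSCs-Exo than in REG at an unadjusted p under 0.05 (4.69% of all genes), among them Taldo1 of the pentose phosphate pathway, with a log2 fold change of -0.34. In the list of other quinone, epoxide and carbonyl targets and export, 9 of 12 fold changes were above 0 in that comparison (51.1% of all genes), with a median of 0.40 against 0.01, and 2 were higher and 2 lower at an unadjusted p under 0.05. Osgin1, an NRF2 target induced by oxidative stress, was at 0.72 (SE 0.21) and the quinone reductase Nqo2 at -0.39 (SE 0.15), both without overlap. None of the 7 tested genes of heme breakdown and iron storage and none of the 4 of superoxide and hydrogen peroxide removal reached an unadjusted p under 0.05 in any of the 3 comparisons with all libraries. Without LFG 3, Ftl1 at 0.68 and Sod1 at 1.04 were higher at that limit in REG against LFG and Slc48a1 at -0.44 lower, where 18.2% of all genes were higher and 19.1% lower. In hADMSCs-Exo against LFG without that library, Sod1 at 0.93 and Sod2 at 0.60 were higher and Sod3 at -0.91 lower, where 12.8% and 15.7% of all genes were.

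**Figure D5:**
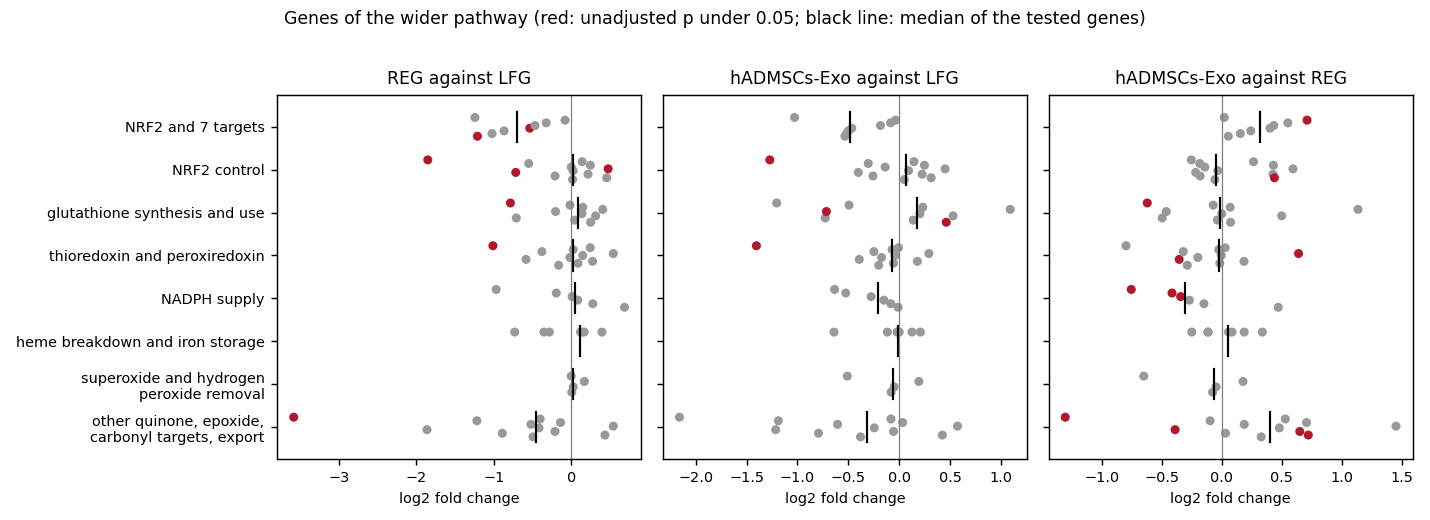
Log2 fold change (x axis, a separate scale in each panel) of the genes described here other than Slc7a11 and in each of the 7 pathway lists (y axis), in the 3 comparisons. Each point is a gene, red at an unadjusted p under 0.05, and the black line is the median. With all libraries, as drawn, the median of NRF2 and its 7 targets is -0.70 in REG against LFG, while the medians of the first 6 pathway lists lie between 0.02 and 0.12 and that of the last list at -0.45. Without LFG 3 (not drawn) the median of NRF2 and its 7 targets was -0.95. Those of the first 6 lists then lay between 0.10 and 0.47 and that of the last list at -0.36.

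Without LFG 3, edgeR called 7 of the 63 tested pathway genes in REG against LFG, where 10.7% of all genes were called. The 5 lower were the carbonyl reductase gene Cbr3 at a log2 fold change of -4.14, the exporter Abcc4 at -2.40, Ptgr1 at -1.61, the plasma glutathione peroxidase Gpx3 at -1.22 and Sesn2 at -1.15. The 2 higher were Txnrd2 at 1.05 and the cytosolic superoxide dismutase Sod1 at 1.04. In hADMSCs-Exo against LFG without that library, Gpx3 at -1.71 and Txnip at -1.63 were called lower (4.50% of all genes were). Without LFG 3, Nfe2l2, Gclm, Txnrd1 and Gsr were not called in REG against LFG, and Gclm was the one with a fold change above 0.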

How the data were processed

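Liver RNA of LFG, REG and hADMSCs-Exo (3 libraries each) was isolated with Trizol and made into libraries with an NEBNext Ultra kit. The authors deposited raw counts per gene and, beside them, FPKM of the same genes. The submitters' processing notes name cutadapt 1.15, HISAT2 2.0.5, HTSeq 0.9.1, DESeq 1.30.0 and the build GRCm38, without their roles. The table labels the third group MSC with the suffix E, and these columns were taken as the samples titled Exo, since the stem cell samples have MSC alone in their titles. Every hADMSCs-Exo value rests on that reading. The 3 hADMSCs samples of the 12 were not analysed here.

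Counts were tested per pair of groups with edgeR 4.0.16 (R 4.3.3), using TMM scaling, filterByExpr, the two-sided quasi-likelihood test and Benjamini-Hochberg adjustment over all genes tested. A gene was called at an adjusted p under 0.05 and a log2 fold change of at least 1 in size. The script was tested on simulated data. Levels are log2 CPM with a prior count of 2, and the deposited FPKM was used only to compare levels between genes and for the ratio of Gclc to Gclm. All 9 genes have the same start, end and strand in the GENCODE M21 annotation. Replicates differed by more than sampling noise, with a chi-square of at least 27.0 per gene.

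The 9 genes, the 65 pathway genes and the cell type markers were chosen with earlier results of these data known. Pathway genes were named if called, or as the up to 3 in each direction with the smallest unadjusted p under 0.05 and no overlap, and the 5 genes most like Nfe2l2 and Nqo1 by Pearson's r. One gene that this rule names is not reported here. Genes named from the fits without LFG 3, Timd4, Alb, Apoa1, Cyp2e1, Hnf4a, the sums without Alb, the library values of Cbr3 and the levels of Keap1 were added after their values were seen. Alternatives were other scaling, DESeq2 1.42.0, limma 3.58.1 voom with quality weights, other filters, a fit of all 9 libraries, a replicate block, other call rules and leaving out each library. Scaling by library totals alone, counts of the genes without Slc7a11, and the motifs other than TGACNNNGC and its longer form were chosen after seeing the data. Replicate numbers are shared by the labels of all groups. Deviations of same-numbered libraries correlated at 0.107, 0.313 and 0.191 in hADMSCs-Exo and LFG, and at 0.143, -0.0073 and 0.027 in hADMSCs-Exo and REG. In REG and LFG they correlated at 0.423, -0.207 and 0.315. The labels name no pairs and these values do not establish any, so the main tests treat the libraries as unpaired.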

Additional observations from a re-analysis of the deposited data

How the results depend on the processing

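In hADMSCs-Exo against REG, where edgeR called 1 gene, DESeq2 called 68, limma voom 3, no filter on low counts 4, one fit of all 9 libraries 0, the unadjusted p 266 (and 1 pathway gene), and leaving out a library 0 to 1. In REG against LFG, where it called 0 genes, DESeq2 called 232, limma voom 1285, the unadjusted p 537, and leaving out a library 0 to 1391. Of the NRF2 genes there, DESeq2 called 1, limma voom 4, the unadjusted p 1, and leaving out a library 0 to 5, one of the 5 being Slc7a11, which passed the filter there only through LFG. Of the pathway genes, DESeq2 called 1, limma voom 6, the unadjusted p 3, and leaving out a library 0 to 7. In hADMSCs-Exo against LFG, with 0 genes, DESeq2 called 58, limma voom 1, one fit of all 9 libraries 1, the unadjusted p 374 (and 2 pathway genes), and leaving out a library 0 to 773 genes and 0 to 2 pathway genes. The cause was not tested, except that in the 2 comparisons with LFG the highest counts of genes came without LFG 3. The longer motif left 1 gene of 4.

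Some log2 fold changes turned. In hADMSCs-Exo against REG, limma voom gave Srxn1 -0.046 and Gsr -0.019, and the replicate block Gsr -0.013. Gclm turned to 0.14 (limma voom) and 0.029 (replicate block) in REG against LFG, and to 0.19 and 0.059 in hADMSCs-Exo against LFG. Leaving out a library gave, in hADMSCs-Exo against REG, Gclm -0.042 to 0.15, Gsr -0.25 to 0.18, Nfe2l2 -0.0063 to 0.26, Nqo1 -0.089 to 0.79 and Srxn1 -0.40 to 0.50. It gave Gclm -0.36 to 0.37 in REG against LFG, and Nqo1 -1.11 to 0.19, Gclm -0.32 to 0.39 and Txnrd1 -0.30 to 0.061 in hADMSCs-Exo against LFG. The replicate block called 0 of the NRF2 genes in each comparison and changed no other call. Scaling by library totals alone moved the median of all genes to -0.27 in REG against LFG and -0.18 in hADMSCs-Exo against LFG, and turned no direction. The level of Slc7a11 in REG moved with a prior count of 0.5, since it rests on 1 or 2 counts.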
